A study of Mus musculus with 12 samples.

Results

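The cadherin superfamily genes of mouse C2C12 cells were examined, a line of myoblasts that divide in growth medium (GM) and fuse into myotubes once serum is withdrawn. The genes were chosen by name alone. A gene belonged when it was protein-coding, had a name that starts with Cdh and a digit, with Pcdh or with Celsr and a digit, or was Fat1, Fat2, Fat3 or Fat4, and appeared in at least 1 of the 3 deposited RNA-seq tables. The muscle cadherin genes Cdh2 and Cdh15 were left out. This gave 40 genes of the 9266 protein-coding genes in the tables.

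Cadherins are membrane proteins whose extracellular cadherin repeats bind calcium and hold neighbouring cells together, and the classical cadherins anchor to actin through catenins. Protocadherins share the repeats but lack the catenin-binding tail, and those of the alpha, beta and gamma clusters give neurons combinatorial surface identities. Celsr proteins act in planar cell polarity, and Fat proteins are giant cadherins, of which Fat4 binds Dchs1 in cell polarity. In muscle, cadherins are known for holding myoblasts together before fusion.

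RNA-seq covered 4 groups with 2 libraries each. GFP-overexpressing cells were sampled in GM (day 0) and after 4 days in differentiation medium (D4), whereas cells overexpressing METTL3 or METTL14 were sampled only in GM. METTL3 and METTL14 form the core of the enzyme complex that writes N6-methyladenosine on mRNA. The mouse cDNAs and GFP, the control, came from a lentiviral vector with a CMV promoter, and stable cells were selected with puromycin, so every group carried a vector. For the METTL14 libraries the time point field reads D4 and the titles read D0, and the titles were used. Each table belongs to 1 comparison with GFP-overexpressing cells in GM: the D4 table to GFP-overexpressing cells at D4, and the METTL3 and METTL14 tables to the overexpressing cells in GM.

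A gene is in a table when it passed the limit on false discovery rate that the study's methods give for that comparison. The level used here is the authors' mean normalized count, an average over libraries of read counts after scaling by library. It was the same in every table that held a gene (largest relative difference 4.77e-10). One pooled mean stands for all groups, so it carries no replicate error and does not say in which group a gene was high. The tables hold no value per library, the depth of each library is unknown from them, and no test between groups was made here. The fold changes and p-values of the authors' comparisons were not used, and no direction is given for any gene. In bulk RNA, fewer cells of a type and less RNA per cell cannot be told apart.

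The targeted genes were looked up first. Mettl3 was in the METTL3 table with a mean normalized count of 5827, and Mettl14 was in the METTL14 and D4 tables with 6250. The introduced and the endogenous transcripts could not be separated, and these pooled means do not check any library's label. All 6 muscle markers looked for (Myod1, Myf5, Des, Myog, Acta1 and Myh3) were in some table, beside 42% of all annotated protein-coding genes. Of the 6, 5 were in the D4 table and Myod1 was not, beside 95.2% of protein-coding genes found in any table. The mean normalized counts were 24157 for Des, the muscle intermediate filament gene, and 1845 for Myod1, the myogenic transcription factor gene.

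Of 97 annotated genes that fit the naming rule, 40 (41.2%) were in some table, close to the 42% of all annotated protein-coding genes. The subfamilies differed in how many of their genes appeared. The beta protocadherins had 15 of 22 annotated genes in the tables and the gamma protocadherins 8 of 21, whereas the alpha protocadherins had 0 of 14. Of the delta protocadherins, 4 of 9 were present (Pcdh1, Pcdh7, Pcdh18 and Pcdh19), and of the type II classical cadherins 4 of 13 (Cdh6, Cdh10, Cdh11 and Cdh24). Fat had 3 of 4 genes, without Fat3, and Celsr had 1 of 3, Celsr3. Cdh1, which encodes E-cadherin of epithelia, was the only type I classical gene of 3 with a value. Cdh2 and Cdh15, left out by the rule, are not counted among these 3, and both were in the tables. Cdh13, Cdh17 and Cdh23 were present among 5 other cadherins, and Pcdh20 among 3 other protocadherins. A gene that is missing from the tables may be silent, expressed at like levels in the groups or too variable to pass, and these cannot be told apart here.

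**Figure D1:**
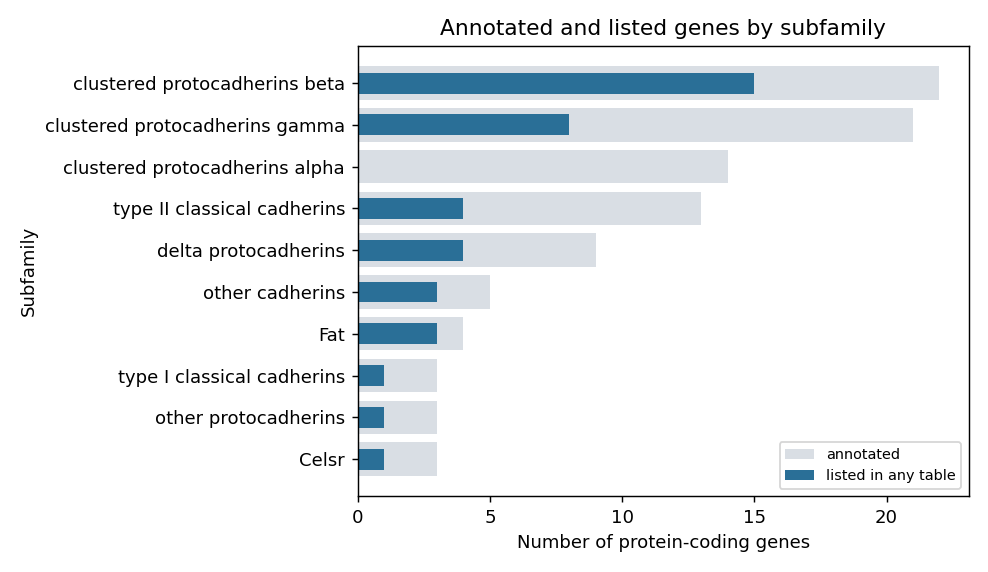
Number of protein-coding genes (horizontal axis) in each cadherin subfamily: wide bars give the genes in the annotation and narrow bars the genes in any of the 3 tables. The beta cluster leads with 15 of 22 genes, and the alpha cluster has 0 of 14.

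The cadherin genes mostly had low levels in the pooled mean, in which GFP-overexpressing cells at D4 were the only group outside GM. Their median mean normalized count was 77.4 (interquartile range 14.9 to 261), against 545 (178 to 1257) over all protein-coding genes in the tables. The clustered protocadherins held much of this low end: without them the median of the other 17 genes was 251, and the 4 delta protocadherins had a median of 1203. Because counts grow with transcript length, genes were compared by the mean normalized count per kb of annotated exon. On that scale the median was 14.4 for the cadherin genes, 22.9 for the 17 outside the clusters and 115 for all genes. The 4 delta protocadherins, with a median of 126 per kb of exon, were near that of all genes. Of the 40 genes, 5 lay above the median of all genes. These were Cdh13, Pcdhgc3, Pcdh19, Fat1 and Pcdh1.

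Cdh13 had the highest level. It encodes T-cadherin, which is held in the membrane by a lipid anchor and has no cytoplasmic tail. Its mean normalized count was 5191, which is 462 per kb of exon, above 85.8% of the protein-coding genes in the tables. It lies on chromosome 8 (118283733 to 119324921, plus strand, GRCm38) and spans 1041 kb, the longest span among the 40 genes. Next came Pcdhgc3, at 339 per kb of exon, and the delta protocadherin gene Pcdh19, at 198. Pcdh19 lies on the X chromosome, and its protein works in neuronal adhesion. The giant cadherin gene Fat1 stood at 160 per kb of exon, from a mean normalized count of 2501. The delta protocadherin genes Pcdh1 and Pcdh7 followed at 142 and 109 per kb of exon. Cdh24 (83.4), Pcdhb17 (66.6), Pcdh18 (45.4) and Pcdhb20 (41.9) completed the 10 highest levels per kb of exon. With no error on a pooled mean, the order of neighbours cannot be tested. Length sets some ranks too: per kb of the longest coding sequence, Cdh13 (2424) and Pcdhgc3 (665) still led, and Cdh11 stood at position 7 in place of position 12.

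**Figure D2:**
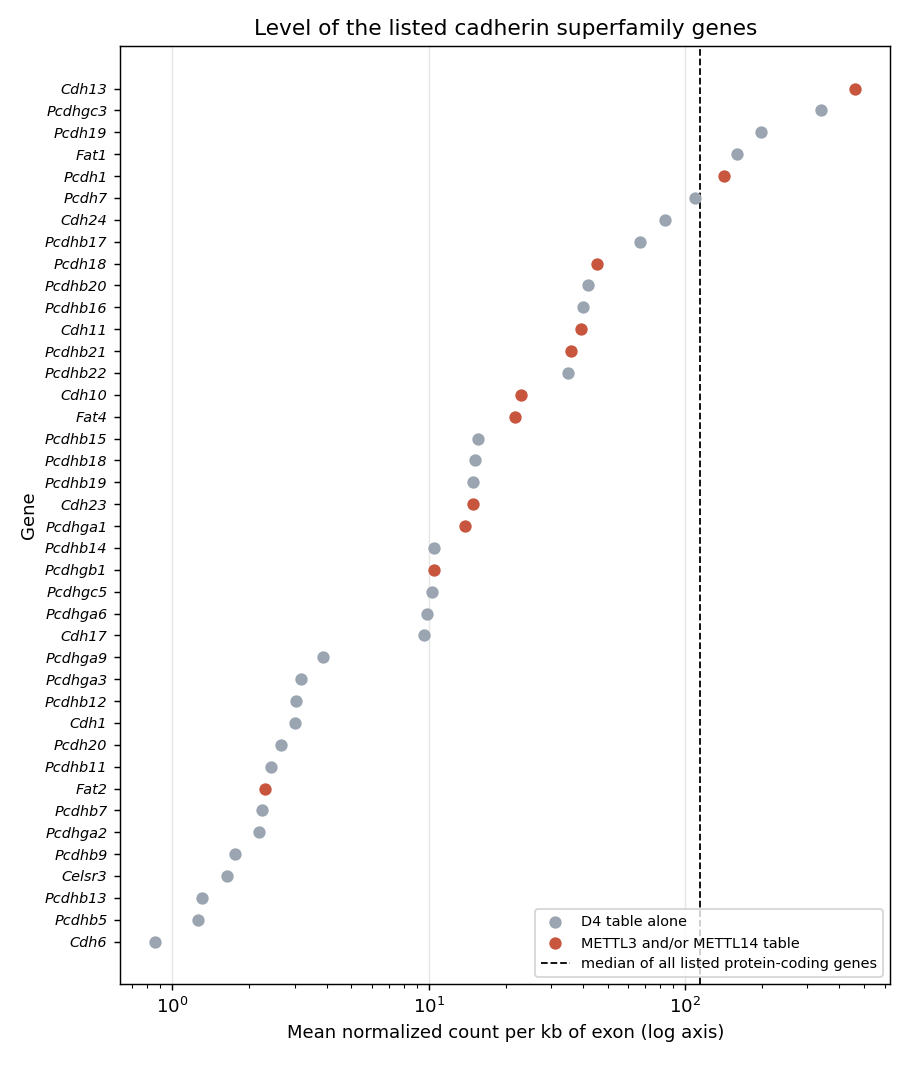
Mean normalized count per kb of exon (horizontal log axis) for each of the 40 cadherin superfamily genes (vertical axis). Points are pooled means without error bars, red for the genes in the METTL3 or METTL14 table and grey for the 29 in the D4 table alone. Of the 40 points, 5 lie right of the dashed median of all listed protein-coding genes.

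At the other end, 6 genes had a mean normalized count under 10. They were Cdh6 and the beta protocadherins Pcdhb5, Pcdhb7, Pcdhb9, Pcdhb12 and Pcdhb13. Cdh6 was lowest per kb of exon, at 0.858. Cdh1 was also low, with a mean normalized count of 13.8 and a level of 3.01 per kb of exon. Celsr3 stood at 1.63 and Fat2 at 2.30 per kb of exon, with coding sequences of 9927 bases for Celsr3 and 13053 for Fat2. Pcdh20, a protocadherin gene outside the clusters, had a mean normalized count of 14.6, and Cdh17, which encodes the liver-intestine cadherin, had 42.9.

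The beta protocadherin genes stand in a row on chromosome 18, all on the plus strand, and each of the 15 in the tables has a single coding exon. Their levels differed between the start and the end of the row. Genes were numbered 1 to 22 along the chromosome, which is also how they are named. Among genes 1 to 13 (chromosome 18, 37264938 to 37446209), 6 were in the tables, with mean normalized counts between 4.46 (Pcdhb5) and 10.8 (Pcdhb11). All 9 of genes 14 to 22 (37447656 to 37524479) were in the tables, with counts between 43.6 (Pcdhb15) and 310 (Pcdhb17). The ranges did not overlap. Per kb of exon they did not overlap either, with 1.26 to 3.04 (median 2.00) in the first stretch and 10.5 to 66.6 (median 34.9) in the second. Within the second stretch Pcdhb22 (231) and Pcdhb16 (208) came next by mean normalized count, and Pcdhb18 (76.2) and Pcdhb14 (91.6) were low. The order per kb of exon was different: Pcdhb20 (41.9) and Pcdhb16 (39.9) followed Pcdhb17, and Pcdhb14 (10.5) and Pcdhb19 (14.9) were lowest. The dividing point was set after the values were seen, so this is a description. The 7 beta genes with no value all lie in the first stretch. Identical sequence that the beta genes shared with other genes was limited. Only exact matches were counted, so sequence that is similar but not identical was not measured. Of all windows of 100 bases in the longest transcript, between 0% and 7.73% also occurred in another gene's transcripts, the latter in Pcdhb21, whose exon overlaps that of Pcdhb22.

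The gamma genes follow on the same chromosome. Their transcripts join a variable first exon to constant exons that the whole cluster uses, and between 17.4% and 49.0% of the windows of 100 bases in the 8 genes recurred in other genes. Between 37.9% and 54.6% of their exonic bases belonged to another gene on the same strand, so how the counting assigned reads of the constant exons bears on these values. Within this limit, Pcdhgc3, one of the C-type genes near the constant exons, stood at a mean normalized count of 1863. That is 24.4 times the next gamma gene per kb of exon, Pcdhga1, at 13.9. The other 6 were Pcdhgb1 (10.5 per kb of exon), Pcdhgc5 (10.3), Pcdhga6 (9.82), Pcdhga9 (3.86), Pcdhga3 (3.17) and Pcdhga2 (2.19). Of the exonic bases of Pcdhgc3, 66.9% overlapped another gene on either strand. Among the beta genes, Pcdhb12 had 63.5% of its exonic bases under a gene on the opposite strand. No source used here states whether counting used the strand.

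**Figure D3:**
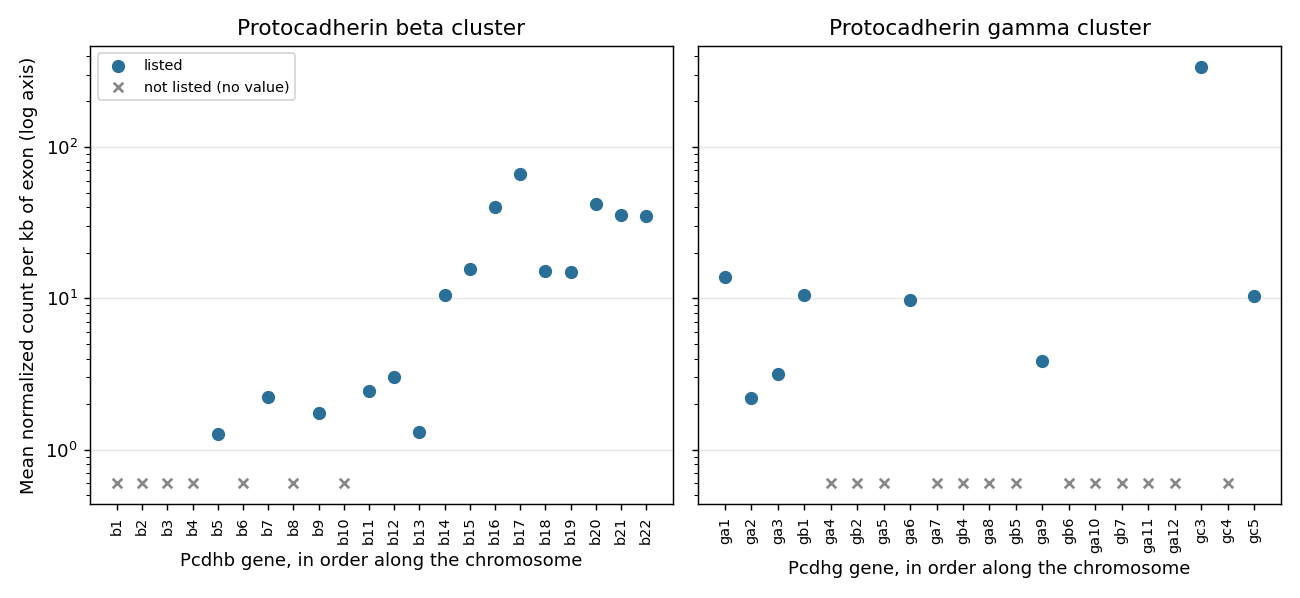
Mean normalized count per kb of exon (vertical log axis) for the beta (left) and gamma (right) protocadherin genes in their order along the chromosome. Points are pooled means without error bars, and crosses mark annotated genes with no value, set at the bottom for display. In the beta cluster the 9 genes from Pcdhb14 to Pcdhb22 all lie above the earlier ones, and in the gamma cluster Pcdhgc3 stands apart.

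In the D4 table there were 38 of the 40 genes (95%), beside 95.2% of all protein-coding genes found in any table, so the share was near the background. The METTL3 table held 9 of the 40 (22.5%), beside 18.5% of all protein-coding genes. The METTL14 table held 8 (20%), beside 11.6%. The 3 comparisons share the GFP-overexpressing cells in GM, so their lists are not independent. Fat2 and Cdh10 were the genes not in the D4 table. All 23 clustered protocadherins were in the D4 table, 1 in the METTL3 table (Pcdhb21) and 2 in the METTL14 table (Pcdhga1 and Pcdhgb1).

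The genes in the METTL3 or METTL14 table were not alike in level. Those in both were Cdh10, Cdh11, Cdh13, Fat4, Pcdh1 and Pcdh18, with mean normalized counts between 230.3 (Cdh10) and 5191 (Cdh13). Of these, Cdh10 and Cdh11 encode type II classical cadherins, and Cdh11 is known as a cadherin of mesenchymal cells. The share of all protein-coding genes in both tables is not given here, so nothing is read from how many cadherin genes were in both. Fat4 had a mean normalized count of 373 and Cdh11 of 350.1. The METTL3 table alone of these also held Cdh23 (251), which encodes the tip-link cadherin of hair cells, Pcdhb21 (168) and Fat2 (33.3). The METTL14 table alone of these held Pcdhga1 (74.5) and Pcdhgb1 (60.5). The 29 genes in neither had a median of 43.6, with 10 of them at or above 100. Most of the 29 were clustered protocadherins and none of the 6 was, so these sets also differ in subfamily. The counts are not divided by length, and the share of all protein-coding genes in neither table is not given here. All 6 genes in both tables lay above 100, but so did most protein-coding genes in the tables, whose lower quartile was 178. Among low counts a difference is harder to detect, and the part of level in these lists was not tested.

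Promoters were looked up for 5 of the 6 genes found in both the METTL3 and METTL14 tables, Cdh10, Cdh11, Cdh13, Fat4 and Pcdh18, and that of Pcdh1 was not. The RefSeq set held a window for 3 of the 5, shown here (build GRCm38.p6, 250 bases before to 50 after the start, 5′ to 3′ on the gene's strand). Capitals mark matches, on either strand, to GGGCGG, the GC box. CAGCTG, an E-box of the kind myogenic factors bind, was also searched. The windows are those of Cdh10 (chr15:18820079-18820378, plus strand), Fat4 (chr3:38886690-38886989, plus strand) and Pcdh18 (chr3:49757267-49757566, minus strand).
Cdh10: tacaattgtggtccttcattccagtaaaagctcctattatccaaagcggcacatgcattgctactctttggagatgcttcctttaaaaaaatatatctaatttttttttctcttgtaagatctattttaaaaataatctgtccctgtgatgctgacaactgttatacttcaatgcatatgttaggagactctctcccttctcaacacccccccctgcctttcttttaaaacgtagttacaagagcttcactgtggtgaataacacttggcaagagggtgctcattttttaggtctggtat
Fat4: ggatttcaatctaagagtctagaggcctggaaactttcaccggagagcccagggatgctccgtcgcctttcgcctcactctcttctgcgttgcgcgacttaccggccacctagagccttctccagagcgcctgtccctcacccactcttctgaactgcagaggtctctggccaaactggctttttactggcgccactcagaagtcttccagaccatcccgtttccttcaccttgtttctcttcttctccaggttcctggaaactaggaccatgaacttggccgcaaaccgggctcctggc
Pcdh18: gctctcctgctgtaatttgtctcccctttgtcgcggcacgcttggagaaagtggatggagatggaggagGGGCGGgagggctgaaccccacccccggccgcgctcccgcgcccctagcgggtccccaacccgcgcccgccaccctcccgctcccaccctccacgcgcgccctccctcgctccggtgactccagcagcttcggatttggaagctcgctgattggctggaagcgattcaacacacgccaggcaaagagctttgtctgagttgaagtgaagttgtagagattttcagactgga
The Cdh10 window starts at 18820079, inside the annotated gene, which starts at 18818947. Those of Fat4 and Pcdh18 cover the annotated starts of their genes (38886940 and 49757325). The windows differed in base composition. GC content was 37.7% in Cdh10, 55.7% in Fat4 and 63% in Pcdh18, with 2, 13 and 23 CpG dinucleotides, against medians of 52.7% and 7 over 32851 windows. GGGCGG occurred 1 time, in Pcdh18, and it is held by 35.7% of all windows. CAGCTG was in none of the 3, and 16.3% of all windows hold it.

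Gene structure differed between the clustered protocadherins and the other cadherin genes. Over all 40 genes the median coding sequence was 2486 bases, against 1410 over all protein-coding genes in the tables. The median number of coding exons was 4, against 9 over all genes, and 15 of the 40 had a single coding exon, all of them beta protocadherins. Outside the clusters, the 17 remaining genes had a median of 11 coding exons. The largest coding exon held a median of 86.7% of the coding sequence over the 40 genes and 29.2% over these 17, against 25.1% over all genes. The median span was 26.4 kb over the 40 genes and 106 kb over the 17, against 24.8 kb. Cdh23 had the most coding exons, 69. GGACT, a common form of the site that METTL3 and METTL14 methylate, was counted on the transcript strand of the longest transcript. Its median was 1.18 per kb for the cadherin genes and 1.04 per kb for all genes, with wide overlap (interquartile ranges 0.883 to 1.42 and 0.654 to 1.48).

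Partner genes were looked up from a chosen list. Of 15 catenin, plakophilin and linked genes, 8 were in some table, beside 42% of all annotated protein-coding genes. Of these 8, 7 were in the D4 table (background 95.2%), 4 in the METTL3 table (18.5%) and 3 in the METTL14 table (11.6%). Ctnna1, for the alpha-catenin that links cadherins to actin, had a mean normalized count of 12845 and was in the D4 table alone. Jup (plakoglobin, 2030) and Pkp1 (plakophilin 1, 1156) were in all 3 tables. Ctnnb1, for beta-catenin, was in none. Of 9 polarity partners, 7 were in some table, beside the same 42%, with 6 in the D4, 4 in the METTL3 and 4 in the METTL14 table. Vangl2, Prickle1 and Prickle2 were in all 3. Both lists were chosen by hand and are small, and nothing particular to them is read from these counts. Dchs2, which encodes a relative of the Fat4 ligand Dchs1, had a mean normalized count of 66.0, and Dchs1 was in no table.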

How the data were processed

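RNA-seq of C2C12 cells, 8 libraries in 4 groups, was used. The 4 MeRIP-seq libraries were not analysed here. According to the methods, hisat2 placed the reads on GRCm38, and featureCounts summed them by gene from Ensembl annotation. With DESeq2 the authors then made the 3 lists of genes past a false discovery rate limit, 1 for each comparison. Versions of these programs are not given in the sources used here. The column used is a signal as deposited, the authors' DESeq2 mean of scaled counts across libraries. The tables also hold the fold change, standard error, test statistic and p-values of the authors' own comparisons, which were not used, so the limit itself was not checked.

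Gene names were matched by the rule, and rows counted per table. Lengths, positions, exons and transcripts came from GENCODE M21, on the same build but in another release than the counting. All 40 genes, and 9263 of 9266 protein-coding genes, were found in it by identifier. Level per kb divides by the union of annotated exons. No model was fitted and no replicate was compared. All 40 genes were accounted for, and by rule the 10 highest per kb of exon and every gene in the METTL3 or METTL14 table got their own values. Values of other genes, such as the lowest ones and further beta and gamma protocadherins, were chosen after they were seen. Genes and lists were chosen with earlier results of these data known. Calculations used Python 3.11.15, pandas 2.3.3, NumPy 2.4.6 and matplotlib 3.10.9, and were tested on simulated data.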

Additional observations from a re-analysis of the deposited data

How the results depend on the processing

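The number of cadherin genes (40) and the numbers in the D4, METTL3 and METTL14 tables (38, 9 and 8) stayed within 1.5 times when any gene type was allowed, when Cdh2 and Cdh15 were kept (42 genes) and when a mean normalized count of at least 10 was required (34 genes). Of the 10 highest levels per kb of exon, 8 stayed in the top 10 with the longest transcript or the longest coding sequence as the length. The median mean normalized count moved from 77.4 to 85.1 with Cdh2 and Cdh15 kept, to 128 with a count of at least 10 and to 251 without the clustered protocadherins. The median per kb moved from 14.4 to 15.0 with the longest transcript, 25.8 with the longest coding sequence, 15.3 with a count of at least 10 and 22.9 without the clustered protocadherins. No paired analysis was possible because the tables hold no value per library, and for the same reason no library could be left out. Shares of a table and levels rest on the authors' filter, and the tables do not give the depth of each library.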
